A study of Mus musculus with 10 samples.

Results

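The genes that encode the translation factors and the aminoacyl-tRNA synthetases were examined for ARID2 occupancy at their transcription start sites (TSSs) in mouse spermatocytes. The members were protein-coding genes whose symbol begins with Eif1 to Eif6, Eef1, Eef2 or Gspt, or equals Etf1, together with the synthetase genes named by an amino acid letter and "ars", and Eprs, Farsa and Farsb. This rule, which uses the symbol alone, selected 111 of 21774 protein-coding genes, as RefSeq annotates them on GRCm38.p6. Of these, 59 lie on the plus strand and 52 on the minus strand. ARID2 is a subunit found in PBAF, a form of the SWI/SNF chromatin remodeler whose catalytic ATPase is BRG1.

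The cells came from CD1 testes in which spermatogenesis had been synchronized with WIN18,446, an inhibitor of retinoic acid (RA) synthesis, given by gavage at 100 ug per g of body weight from P1 to P10. A dose of 10 ul of RA at 10 ug per ul followed at P11, and spermatogenic cells were collected at P28 (17 days after RA) and at P28.5 (17.5 days after RA). All groups received both agents. Synchronization raised the share of pachytene and diplotene spermatocytes of prophase-I and of metaphase spermatocytes, and the tubules were then digested and sieved into a cell suspension with no sort described, so other testis cells were not removed by a marker. CUT&RUN, in which an antibody directs a nuclease to cut out the chromatin around its target, gave 2 ARID2 libraries, 2 BRG1 libraries and 1 control library without primary antibody (no IgG) at each age. Only the lists of ARID2-occupied TSSs were used here, 1 per age.

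Translation starts when eIF1, eIF1A and the eIF2 complex, which carries the initiator tRNA, assemble on the small ribosomal subunit with the scaffold eIF3, and when the cap-binding factors of the eIF4 group bring in the mRNA. eIF2B recharges eIF2 with GTP, and a family of kinases that phosphorylate the alpha subunit of eIF2 block this step when amino acids, heme or protein folding fail. Elongation factors deliver aminoacyl-tRNAs and move the ribosome, release factors free the finished chain, and synthetases charge each tRNA with its amino acid, with separate enzymes for the cytosol and the mitochondrion in most cases. Spermatocytes store many mRNAs for use after meiosis, so the supply and the timing of translation factors are of long-standing interest in these cells.

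Each list gives TSSs of cluster-1, the k-means cluster with ARID2 signal above the no IgG control, as a chromosome, a position and a gene symbol. The P28 list held 11553 rows at 7144 positions and the P28.5 list 8514 rows at 5193 positions. A position can fill several rows, so the number of rows counts listed transcripts and is not a signal. The lists hold no signal value, read count or strand, and each was made from averaged replicates, so no spread between replicates and no test of a difference could be computed. The shares given here are therefore descriptions, set beside the share of all protein-coding genes, and their Wilson intervals cover counting error over genes only. No depth could be read from the lists.

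The bases just upstream of a few TSSs are shown here, and these starts do not stand for the promoters of all listed members. For 6 plus-strand members listed at both ages and for a pair of members that were not listed, the 150 bases before an annotated 5′ end were read from GRCm38.p6, 5′ to 3′ on the gene's strand. The listed members were chosen from starts in both lists whose upstream bases hold at most 30 annotated exon bases. Capitals mark matches on either strand to a set of short motifs. These are the cyclic AMP response element, spelled TGACGTCA, and its core, spelled TGACG, which lies within it. The ETS motif is spelled CCGGAAG, the NRF1 motif GCATGCGC and the YY1 motif AAGATGGC. The amino acid response element is spelled TGATGCAA, the TATA box TATAAA, the CCAAT box as its name and the GC box GGGCGG. The 4 with the most rows over both ages, where Eif2ak1 was tied with Eif4e and Yars2 at 4 rows and was taken by alphabetical order, are Eif4a2 at chr16:23107318-23107467, Eif2ak4 at chr2:118388962-118389111, Sars2 at chr7:28741818-28741967 and Eif2ak1 at chr5:143817642-143817791. Of the rest, the 2 with the lowest CpG ratio around the curated start are Eif4e at chr3:138526770-138526919 and Eef1g at chr19:8966891-8967040. All 6 lie on the plus strand.
Eif4a2: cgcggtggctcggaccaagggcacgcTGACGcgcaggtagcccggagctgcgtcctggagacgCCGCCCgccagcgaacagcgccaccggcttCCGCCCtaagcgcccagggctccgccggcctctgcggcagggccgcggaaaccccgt
Eif2ak4: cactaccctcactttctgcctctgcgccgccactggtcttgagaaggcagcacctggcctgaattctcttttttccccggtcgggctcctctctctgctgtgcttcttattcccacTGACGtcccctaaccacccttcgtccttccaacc
Sars2: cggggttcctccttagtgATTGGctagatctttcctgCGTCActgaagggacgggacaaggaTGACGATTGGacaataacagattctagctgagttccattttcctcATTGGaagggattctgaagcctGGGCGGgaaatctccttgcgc
Eif2ak1: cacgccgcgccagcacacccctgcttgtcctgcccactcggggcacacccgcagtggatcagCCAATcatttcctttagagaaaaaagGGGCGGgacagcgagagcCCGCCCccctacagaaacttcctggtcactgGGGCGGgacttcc
Eif4e: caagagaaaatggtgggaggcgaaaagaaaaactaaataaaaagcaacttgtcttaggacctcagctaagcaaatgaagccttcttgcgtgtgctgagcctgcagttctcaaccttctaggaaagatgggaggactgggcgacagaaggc
Eef1g: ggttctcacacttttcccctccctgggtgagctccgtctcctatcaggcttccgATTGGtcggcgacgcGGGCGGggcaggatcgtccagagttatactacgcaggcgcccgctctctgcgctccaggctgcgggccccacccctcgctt
The members that were not listed are shown as paralogues of listed members: Eif4a1, on the minus strand at chr11:69672424-69672573, is the paralogue of Eif4a2, and Eif4e1b, on the plus strand at chr13:54783848-54783997, that of Eif4e.
Eif4a1: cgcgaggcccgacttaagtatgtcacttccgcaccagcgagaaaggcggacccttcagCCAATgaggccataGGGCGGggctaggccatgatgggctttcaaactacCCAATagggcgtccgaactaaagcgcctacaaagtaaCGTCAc
Eif4e1b: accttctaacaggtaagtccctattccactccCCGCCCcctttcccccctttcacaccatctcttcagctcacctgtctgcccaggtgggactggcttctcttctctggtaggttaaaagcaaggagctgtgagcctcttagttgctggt

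These stretches differ widely in base composition. The bases upstream of Eif4a2 held 76.0% G and C and 22 CpG dinucleotides, those of Eif2ak4 57.3% and 6, and those of Sars2 50.7% and 6. The Eif2ak4 stretch precedes the start at 118389112, which held 1 of its 7 rows in each list. Its other rows lay at 118388581 to 118388657, so the stretch does not describe the start with most of them. The window before Eif4e held 46.7% G and C, 3 CpG dinucleotides and none of the motifs. The stretch before Eif4e1b held 1 CpG dinucleotide, and the CpG ratio around its start, 0.169, was far below that of Eif4a1, 0.840, which was not listed either.

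At P28, 32 of the 111 members were listed by name, or 28.8% (95% Wilson interval 21.2 to 37.9%), against 16.8% of all protein-coding genes. At P28.5, 33 were listed, or 29.7% (22.0 to 38.8%), against 11.6% of all. The number of members thus differed by 1 between the ages, while over all genes it was 3661 at P28 and 2528 at P28.5. At both ages 27 members were listed, where the share of all genes was 8.48%. A further 5 members were listed at P28 only, beside 8.33% of all genes, and 6 at P28.5 only, beside 3.13%. The remaining 73 members were in neither list.

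Plus-strand and minus-strand members differed in how often they were listed. Of the 59 plus-strand members, 29 were listed at P28, or 49.2% (36.8 to 61.6%), against 26.0% of all plus-strand genes. At P28.5, 31 were listed, or 52.5% (40.0 to 64.7%), against 20.4%. Of the 52 minus-strand members, 3 were listed at P28, or 5.77%, against 7.61% of all minus-strand genes, and 2 at P28.5, or 3.85%, against 2.86%. Where a listed position of a member equalled an annotated transcript end, it was a lower coordinate end, which is the 5′ end of a plus-strand gene or the 3′ end of a minus-strand gene. The other 26 of 66 positions at P28 and 24 of 66 at P28.5 equalled no annotated end. No minus-strand member had a row at an annotated 5′ end of its own. Absence from the lists is therefore not evidence of absence of ARID2 at a minus-strand TSS, and the plus-strand members carry most of what the lists can show.

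**Figure D1:**
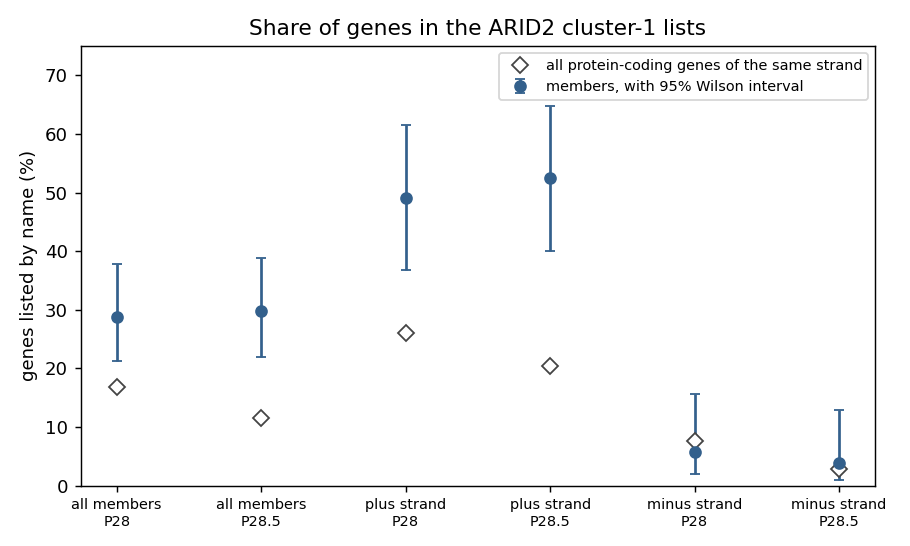
Percentage of genes listed by name (vertical axis) for all members, plus-strand members and minus-strand members at each age. Blue points are members with 95% Wilson intervals and open diamonds are all protein-coding genes of the same strand: the plus-strand members stand at 49.2% and 52.5% beside 26.0% and 20.4%, and the minus-strand members at 5.77% and 3.85% beside 7.61% and 2.86%.

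A minus-strand start can still have a listed position near it where some transcript has its lower coordinate end close by. That end can be the start of a plus-strand neighbour. For 23 of the 52 minus-strand members an annotated lower transcript end lies within 2000 bp of a 5′ end, and 7 of these had a listed position within that distance at each age, or 30.4%. Over the 4715 protein-coding minus-strand genes of this kind, the shares were 21.6% at P28 and 19.7% at P28.5. The members' share was above that of all such genes, in counts that are small. Apart from Gspt1 and Vars2, these members were near rows named for a neighbouring gene only. Such rows cannot be assigned to the member from these lists.

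The initiation factors that bind the small subunit first were listed in part. Eif1, which guards start codon selection, was listed at both ages at its annotated 5′ end with 1 row in each list. Eif1a, an autosomal gene for eIF1A, which promotes mRNA scanning, was also listed at both ages with 2 rows each. Its X-linked paralogue Eif1ax and the second eIF1 gene, Eif1b, were in neither list although both lie on the plus strand. The nearest listed position to Eif1b lay at 47212 bp in the P28 list and at 84725 bp in the P28.5 list.

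Of the 11 genes grouped under eIF2 and eIF2B, 3 were listed at each age, or 27.3%, beside 16.8% and 11.6% of all genes. The same 3 were listed at both ages, all among the 7 plus-strand genes. Eif2s1 encodes the alpha subunit of eIF2, the substrate of the kinases, and Eif2b2 encodes the beta subunit of eIF2B. Eif2a, for a separate factor that can carry initiator tRNA, was listed at its own 5′ end at both ages, and at P28 also had a row 3852 bp upstream that equals the 3′ end of Serp1. A row named Serp1 lay 80 bp from a 5′ end of Eif2a at both ages. Eif2b3, Eif2b5 and Eif2d, on the plus strand, were in neither list, and neither were Eif2s2, Eif2s3x and Eif2s3y. Eif2b1 and Eif2b4, on the minus strand, had no row of their own, but at P28 a row of Gtf2h3 lay 17 bp from the start of Eif2b1 and rows of Snx17 lay 165 and 236 bp from that of Eif2b4. No such row was in the P28.5 list.

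The eIF2 kinases were the group with the highest share. All 3 plus-strand kinases were listed at both ages at identical positions: Eif2ak1, the heme-regulated kinase, with 2 rows in each list, Eif2ak3, the endoplasmic reticulum kinase PERK, with 4, and Eif2ak4, the amino acid sensor GCN2, with 7. The rows of Eif2ak4 covered 5 positions, between 118388581 and 118389112 of chromosome 2, and all were within 40 bp of an annotated 5′ end. The rows of Eif2ak3 reached 295 bp downstream of its nearest 5′ end. Eif2ak2, the double-stranded RNA kinase PKR, lies on the minus strand and was not listed, with the nearest listed position 46957 bp away at both ages.

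Over both strands, the eIF3 genes were listed least among the core factors, at 7.14% and 14.3%, beside 16.8% and 11.6% of all genes. Of the 14, 10 lie on the minus strand, where absence from the lists is not evidence of absence of ARID2. The 4 plus-strand genes were Eif3b, Eif3f, Eif3j1 and Eif3l. Of these 4, 1 was listed at P28 and 2 at P28.5, beside 26.0% and 20.4% of all plus-strand genes. Eif3f, for a subunit of the complex, was listed at P28 only, with 1 row at 108934415 of chromosome 7. Eif3b, for a core subunit that binds RNA, and Eif3l were listed at P28.5 only, with 1 row each at 140419305 of chromosome 5 and 79075223 of chromosome 15. All 3 rows were at an annotated 5′ end, so no eIF3 gene was listed at both ages, and Eif3j1 was in neither list. Among the minus-strand genes Eif3a, Eif3c, Eif3d, Eif3e, Eif3g, Eif3h, Eif3i, Eif3j2, Eif3k and Eif3m, only Eif3k had a listed position within 2000 bp, with Map4k1 rows at 4 positions 160 to 195 bp away at both ages.

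**Figure D2:**
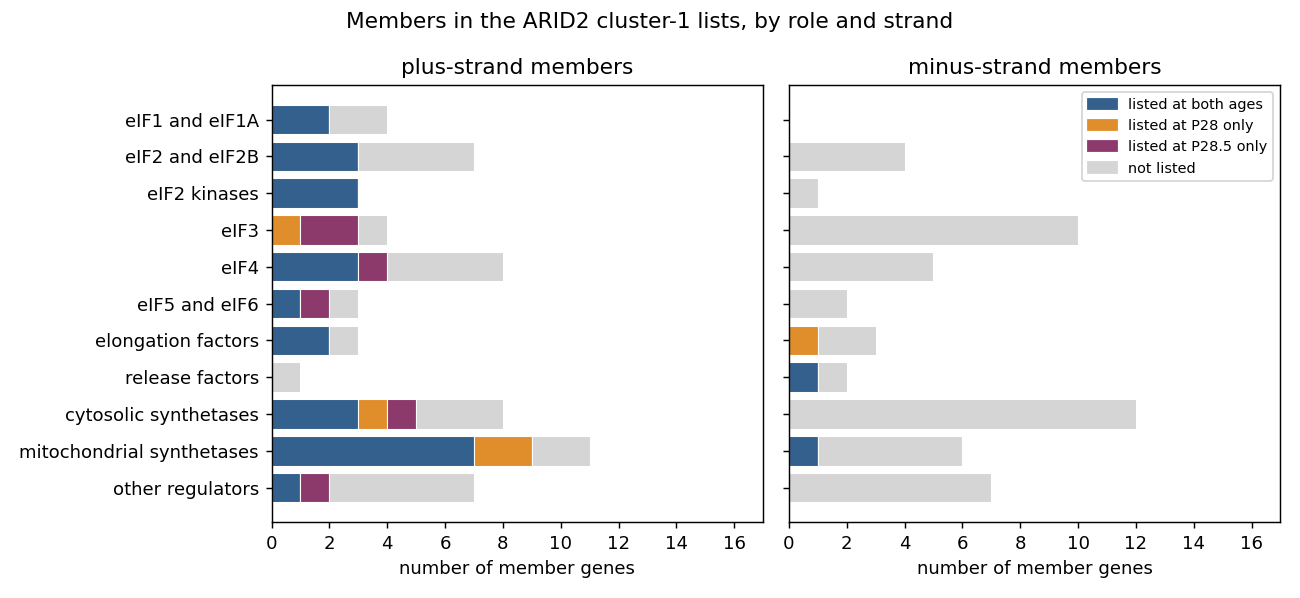
Number of member genes (horizontal axis) in each role, for plus-strand members on the left and minus-strand members on the right. Colours give the class: listed at both ages, at P28 only, at P28.5 only or not listed. All 3 plus-strand eIF2 kinases and 9 of 11 plus-strand mitochondrial synthetases were listed at 1 or both ages, while no minus-strand eIF3 gene or cytosolic synthetase was. Of all 10871 plus-strand genes, 3433 were listed at 1 or both ages.

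The eIF4 genes held the largest difference in rows between the ages among the members. Eif4g1, the scaffold that joins the cap-binding protein to eIF3 and to the poly(A)-binding protein, had no row at P28 and 15 rows at P28.5. These rows lay at 4 positions between 20672720 and 20672775 of chromosome 16, with 11 of them at 20672720, an annotated 5′ end. At P28 the nearest listed position was 22125 bp away. Eif4g3, also on the plus strand, and Eif4g2, on the minus strand, were in neither list. Eif4a2, for an RNA helicase of the eIF4F complex, had 11 rows at 6 positions at both ages, the same positions in each list, within 66 bp of an annotated 5′ end. Its minus-strand paralogue Eif4a1 was not listed, and the nearest position lay 9593 bp off at P28, 9380 bp off at P28.5. Eif4e, the cap-binding protein, was listed at both ages with 2 rows, and Eif4b, the helicase cofactor, with 1. Eif4e1b, Eif4e2 and Eif4a3l1 on the plus strand and Eif4a3, Eif4e3 and Eif4h on the minus strand were not listed.

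For eIF5 and eIF6, 1 of 5 genes (20.0%) was listed at P28 and 2 (40.0%) at P28.5, beside 16.8% and 11.6% of all genes. Eif5b, which joins the ribosomal subunits, was listed at both ages with 1 row. Eif5, the GTPase-activating protein of eIF2, was listed at P28.5 only, with 2 rows at its 5′ end at 111538101 of chromosome 12. The nearest position at P28 was 95440 bp away. Eif5a and Eif6, on the minus strand, and Eif5a2, on the plus strand, were not listed. The distances were 6438 bp for Eif5a and 24167 bp for Eif5a2 at both ages.

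Among the elongation factors, the exchange factor subunits Eef1b2 and Eef1g were listed at both ages with 1 row each at an annotated 5′ end. Eef1a1, the general factor that delivers aminoacyl-tRNAs, was listed at P28 only, and that row, at 78478453 of chromosome 9, equals its own 3′ end, 3271 bp from its start. It therefore says nothing of the Eef1a1 TSS, which lies on the minus strand. The tissue-restricted paralogue Eef1a2 was not listed. Eef1d, the third exchange factor subunit, had no row, but a row of Tigd5 lay 49 bp from its start at P28.5 and none within 2000 bp at P28. Eef2, which moves the ribosome along the mRNA, lies on the plus strand and was not listed, with the nearest position 38898 bp away at both ages.

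Of the 3 release factor genes, 1 was listed at each age, or 33.3%, beside 16.8% and 11.6% of all genes. Gspt1, for the GTPase eRF3a, was listed at both ages with 1 row at 11254368 of chromosome 16. That position lies 43 bp upstream of the minus-strand start of Gspt1 and equals the 3′ end of the Mir1945 transcript. Its X-linked paralogue Gspt2 and Etf1, the factor that reads stop codons, were not listed. The 4 members on the X or Y chromosome, Eif1ax, Eif2s3x, Gspt2 and Eif2s3y, were all in neither list, and the nearest listed position to any of them was 4031329 bp away. At P28 the 3 X-linked members lay 28574351 bp or more from any listed position. Eif2s3x lies on the minus strand with no annotated lower transcript end within 2000 bp of its start. The share of all genes on these chromosomes was not computed, so this absence cannot be read as particular to the members.

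Of the 20 cytosolic synthetases, 4 were listed at each age, or 20.0%, beside 16.8% and 11.6% of all genes. All were among the 8 plus-strand genes. Aars, for alanine, was listed at both ages with 3 rows, and Eprs, for glutamate and proline, and Yars, for tyrosine, with 2 rows. Farsa, for the alpha subunit of the phenylalanine enzyme, was listed at P28 only, with 3 rows between 84856970 and 84857011 of chromosome 8. Qars, for glutamine, was listed at P28.5 only, with 1 row at its 5′ end at 108508005 of chromosome 9. The nearest position in the other list was 9826 bp away for Farsa and 9082 bp for Qars. Gars, Iars and Vars on the plus strand were not listed. The 12 minus-strand genes, Cars, Dars, Farsb, Hars, Kars, Lars, Mars1, Nars, Rars, Sars, Tars and Wars, had no row, and of these Wars alone had a listed position within 2000 bp, at P28.5, when Wdr25 rows lay at 7 positions 53 to 162 bp from its start.

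The mitochondrial synthetases, which charge tRNAs for the proteins encoded by mitochondrial DNA, were listed more often than the cytosolic enzymes. Of 17 genes, the P28 list held 10, or 58.8%, and the P28.5 list 8, or 47.1%, beside 16.8% and 11.6% of all genes. On the plus strand these were 9 of 11 and 7 of 11, beside 26.0% and 20.4% of all plus-strand genes. Aars2, Fars2, Mars2, Nars2, Sars2, Vars2, Wars2 and Yars2 were listed at both ages. Pars2 and Rars2 were listed at P28 only. Those with no row included Cars2, Ears2, Iars2 and Tars2 on the minus strand and Hars2 and Lars2 on the plus strand.

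Nars2 had the most rows of any member, 17 at each age, of which 15 lay at 96951510 of chromosome 7, 17 bp upstream of the annotated 5′ end that held 1 row. Fars2 had 6 rows at 3 positions at each age. Pars2 had 7 rows at P28, 4 of them at its 5′ end at 106651069 of chromosome 4, 1 lying 47 bp upstream and 2 at the 3′ end of Ttc4, 10739 bp downstream, and at P28.5 the nearest position was 188209 bp away. Rars2 had 3 rows at P28, within 12 bp of annotated 5′ ends, and a row of Orc3 lay 16 bp away. At P28.5 the nearest position to Rars2 was 64342 bp away. The 3 rows of Vars2, at 35667728 and 35667730 of chromosome 17, lie 89 and 91 bp upstream of its minus-strand start and equal 3′ ends of Gtf2h4 transcripts.

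Of 17 pairs of a cytosolic enzyme with its mitochondrial counterpart, taking Eprs as the partner of both Ears2 and Pars2 and Farsa as that of Fars2, 4 had both genes listed, those for alanine, phenylalanine, proline and tyrosine. In 6 pairs the mitochondrial gene alone was listed, those for methionine, asparagine, arginine, serine, valine and tryptophan. The cytosolic gene lies on the minus strand in 5 of these 6, and Vars is the exception. In 1 pair, Eprs with Ears2, the cytosolic gene alone was listed, although Ubfd1 rows lay 89 and 104 bp from the minus-strand start of Ears2 at both ages. On the plus strand alone, 4 of 8 cytosolic and 9 of 11 mitochondrial synthetases were listed at P28, and 4 of 8 and 7 of 11 at P28.5. The part that strand plays in the difference between the groups was not tested.

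**Figure D3:**
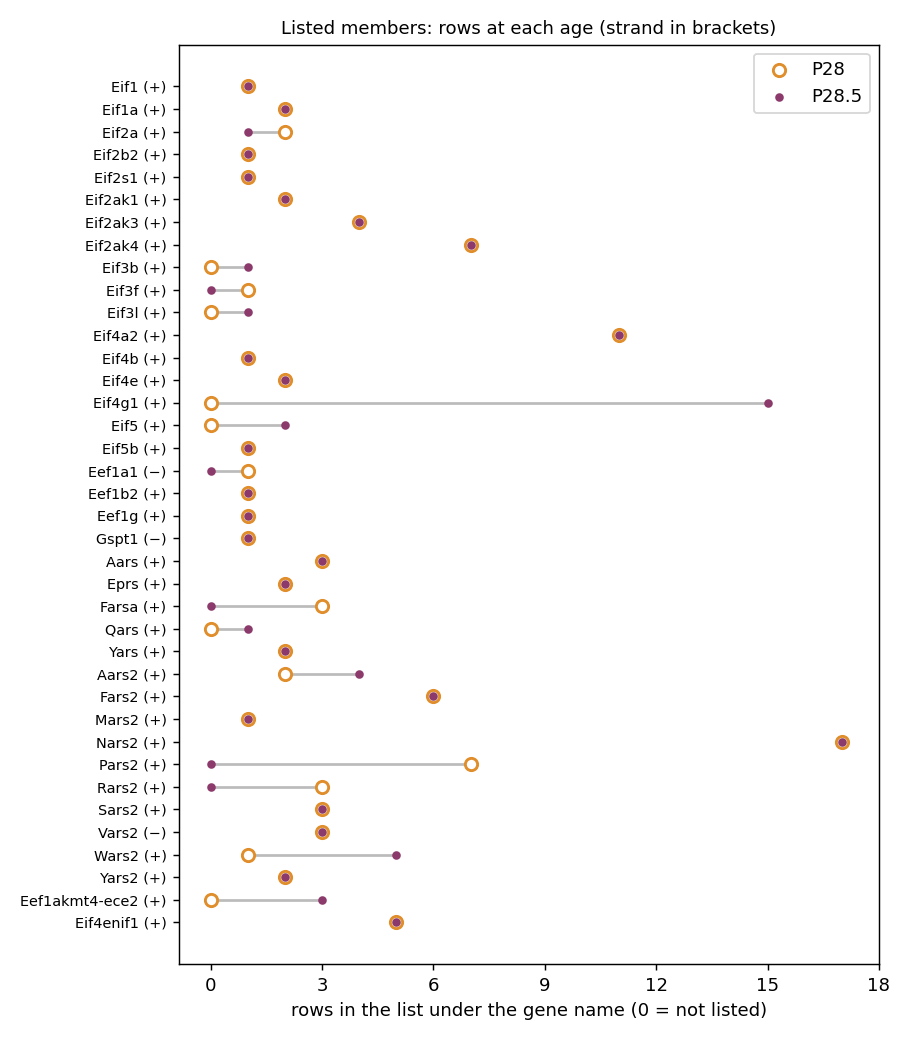
Rows in the list (horizontal axis, 0 where the gene was not listed) at P28 (open circles) and P28.5 (filled circles) for the 38 members listed at 1 or both ages, with the strand in brackets. Circles coincide for 24 members, and the widest gaps are those of Eif4g1, with 0 and 15 rows, and Pars2, with 7 and 0.

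Of the 14 genes that the symbol rule also selects, which regulate or modify these factors, 2 were listed at 1 or both ages. The P28 list held 1, or 7.14%, below the 16.8% of all genes, and the P28.5 list 2, or 14.3%, near 11.6%. Eif4enif1, the transporter that carries the cap-binding protein into the nucleus, had 5 rows at 4 positions at both ages. Eef1akmt4-ece2, a readthrough gene, had 3 rows at P28.5 at 20611601 of chromosome 16, a start it shares with Eef1akmt4, so these rows belong to either gene. Eif4ebp1, Eif4ebp3, Eef2k and Eif1ad on the plus strand were not listed. Eif4ebp2, Eef1e1, Eef2kmt, Eef1akmt1, Eef1akmt2, Eef1akmt3 and Eef1aknmt, on the minus strand, were not listed either.

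Of the members listed at P28, 84.4% were also listed at P28.5, and over all genes listed at P28 this share was 50.5%. Of the members listed at P28.5, 81.8% were also listed at P28, beside 73.1% of all. The listed positions were identical at both ages for 23 of the 27 members. For the other 4, Aars2 kept 1 position, lost that at 45509551 of chromosome 17 and gained 3 at P28.5, Wars2 gained 4 rows at 99140618 of chromosome 3, Eif1a exchanged a position 16855 bp downstream for one 37 bp upstream, and Eif2a lost the row at Serp1. Of the 11 members listed at 1 age, 6 (54.5%) were in the P28.5 list, where the share over all 2495 such genes was 27.3% and over plus-strand genes alone 33.1%. By role, these were Eif3b, Eif3l, Eif4g1, Eif5, Qars and Eef1akmt4-ece2 at P28.5, and Eef1a1, Eif3f, Farsa, Pars2 and Rars2 at P28.

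Listed positions lay close to annotated starts, which follows from how the lists were made. They are RefSeq TSSs clustered by ARID2 signal, so their distances do not locate that signal. At P28 the members' 100 rows fell at 66 positions, of which 34 equalled a 5′ end of the gene named, 61 lay within 100 bp of one and 4 lay over 2000 bp away, the farthest at 16855 bp. At P28.5 the 113 rows also fell at 66 positions, of which 39 equalled an own 5′ end, 64 lay within 100 bp and none over 472 bp away. The median distance was 0 bp at both ages. The 4 far positions at P28 were those of Eif1a, Pars2, Eif2a and Eef1a1 named above.

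**Figure D4:**
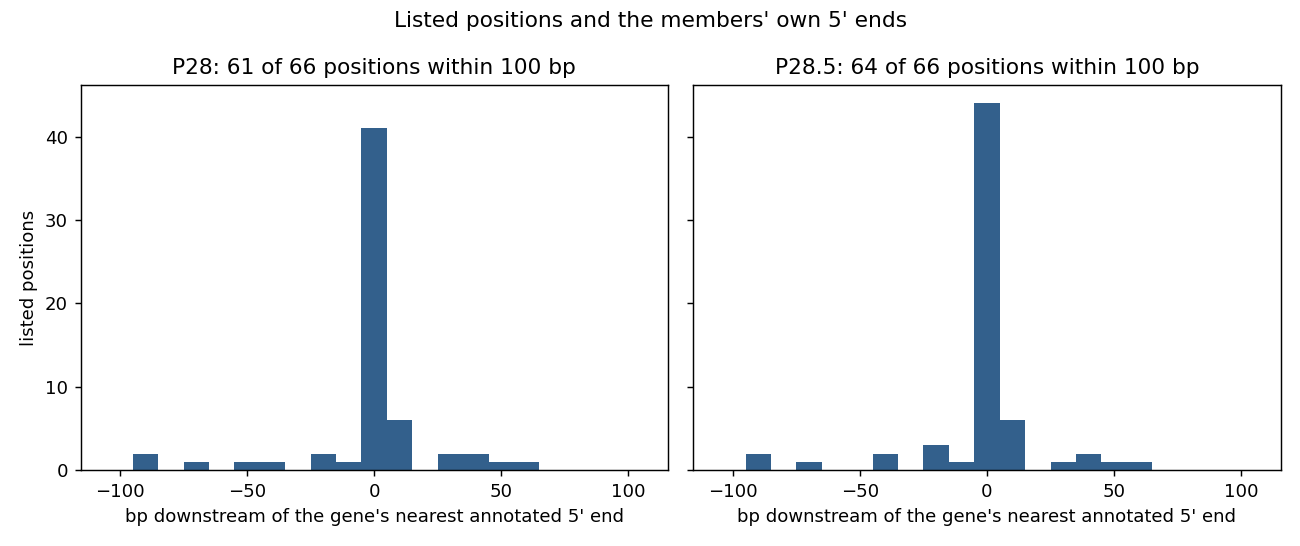
Listed positions (vertical axis, count) by distance in bp downstream of the nearest annotated 5′ end of the gene named (horizontal axis, in bins of 10 bp), at P28 on the left and P28.5 on the right, for positions within 100 bp. The bin around 0 is the tallest at both ages, and 61 of 66 and 64 of 66 positions are shown. The positions are RefSeq TSSs and do not locate ARID2 signal.

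The 73 members in neither list were mostly far from any listed TSS, with a median distance of 56719 bp at P28 and 76654 bp at P28.5. The exceptions were the 8 members with a row of another gene within 2000 bp at 1 or both ages. Among them were Eif3k and Ears2 at both ages, Eif2b1 and Eif2b4 at P28 only, and Eef1d, Wars and Eef1akmt4 at P28.5 only. Of the 73, 49 lie on the minus strand, and 21 of these have an annotated lower transcript end within 2000 bp of a 5′ end. A long distance at the other minus-strand starts is therefore not evidence that ARID2 was absent. The same distances were not computed over all genes. A position between divergent genes cannot be assigned to either of them from these lists. In all, 41 of the 111 members have an annotated 5′ end of another gene within 1000 bp of one of their own.

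Promoters rich in CpG were listed more often over all genes, and the members are rich in CpG. Counted within 500 bp of the curated start and divided by its expectation from base composition, CpG had a median ratio of 0.785 over the members and 0.576 over all protein-coding genes. Among the plus-strand members, the 35 listed at 1 or both ages had a median of 0.819, with a range of 0.603 to 1.044. The 0.603 is that of Eif4e, and is the same around its outermost 5′ end at 138526191 of chromosome 3. Its listed positions, 138526920 and 138527268, lie outside that window. The 24 not listed had a median of 0.751 and a range of 0.169 to 1.008, and 6 of these 24 lay below every listed member. When plus-strand genes were divided by quintiles of this ratio, a division added after seeing the data, 14 of 27 members in the highest quintile were listed at P28, or 51.9%, against 46.7% of all genes in it. At P28.5 these were 17 of 27, or 63.0%, against 47.1%. In the next quintile 9 of 15 members, or 60.0%, were listed at P28 against 40.8%, and 8 of 15, or 53.3%, at P28.5 against 35.2%. In the middle quintile 6 of 14, or 42.9%, were listed at each age, against 25.3% and 15.3%. None of the 3 plus-strand members in the lowest 2 quintiles was listed. With the ratio taken at the gene's outermost 5′ end, the quintiles read differently. In the highest, 15 of 29 members, or 51.7%, were listed at P28 against 46.3%, and 18 of 29, or 62.1%, at P28.5 against 47.1%. In the next, 6 of 14, or 42.9%, were listed at P28 against 39.5%, and 5 of 14, or 35.7%, at P28.5 against 33.2%. In the middle quintile 4 of 8 were listed at each age against 21.4% and 12.1%, and in each of the lowest 2 quintiles 2 of 4, against 8.55% and 3.49% in the lowest and 13.9% and 5.47% in the next. The share of the members' excess over all genes that goes with CpG content was not tested.

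**Figure D5:**
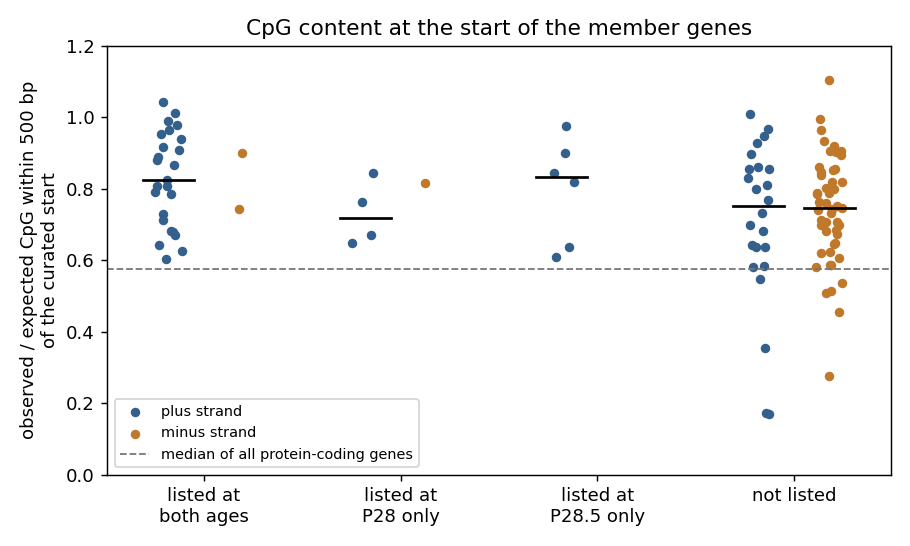
Observed to expected CpG ratio within 500 bp of the curated start (vertical axis) for each member, by class and strand. Bars are medians of groups with over 2 genes and the dashed line is the median of all protein-coding genes, 0.576. Listed plus-strand members lie between 0.603 and 1.044, and members below that range were not listed.

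Several short motifs were more frequent in the members' promoters than in all promoters. Windows from 250 bases before to 50 after the curated start were searched on both strands. The ETS motif CCGGAAG was in 33.3% of the members' windows and in 11.8% of all, the YY1 motif AAGATGGC in 9.01% and 3.16%, and the GC box GGGCGG in 71.2% and 47.0%. The CCAAT box was in 36.9% and 38.4%, the NRF1 motif GCATGCGC in 8.11% and 3.50%, and the TATA box TATAAA in 8.11% and 13.1%. The full cyclic AMP response element TGACGTCA was in 1 member's window, or 0.901%, beside 2.50% of all, and its core TGACG in 38.7% and 23.9%. Plus-strand members listed and not listed, 35 and 24 genes, were set side by side. Their shares were 28.6% and 29.2% for the ETS motif, 74.3% and 62.5% for the GC box, and 42.9% and 25.0% for the CCAAT box. Over all listed plus-strand genes these were 20.8%, 67.4% and 42.8%. The members' shares were 14.3% and 4.17% for YY1, 8.57% and 4.17% for NRF1, and 14.3% and 8.33% for the TATA box. Those for TGACG were 34.3% and 41.7%, and for TGACGTCA 0.0% and 4.17%. Over all listed plus-strand genes these 5 were 5.01%, 7.22%, 6.9%, 35.5% and 4.28%.

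The amino acid response element TGATGCAA, which in other genes is bound by ATF4 when amino acids are short, was in 6 members' windows, or 5.41%, and in 0.804% of all. All 6 were cytosolic synthetases, among the 37 synthetase genes. The 30 bases centred on the match are shown for 4 of them, chosen after the motif counts were seen, with the match in capitals: Yars at chr4:129189895-129189924, listed at both ages, and Cars at chr7:143600045-143600074 (minus strand), Iars at chr13:49682126-49682155 and Tars at chr15:11399655-11399684 (minus strand), which were not listed.
Yars: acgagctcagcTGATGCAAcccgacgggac
Cars: cggcgccgcggTTGCATCAgattctggaag
Iars: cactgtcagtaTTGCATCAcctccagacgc
Tars: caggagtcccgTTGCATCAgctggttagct
The match begins at base -15 from the curated start in Tars, and at base 4 of the transcript in Yars, 8 in Iars and 28 in Cars. Aars, listed at both ages, and Nars, not listed, are the other members with a match. Of the 3 plus-strand members with the motif, Aars and Yars were listed and Iars was not.

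Other genes of the pathway that the symbol rule does not select were counted in the same way. Of 21 cofactors of initiation, elongation and ribosome recycling and scaffold proteins of the synthetase complex, the P28 list held 6, or 28.6%, and the P28.5 list 11, or 52.4%, beside 16.8% and 11.6% of all genes. Aimp1 and Aimp2, which hold the synthetase complex together, Abce1, which splits ribosomes after release, Abcf1 and Paip2 were listed at both ages. Paip1, an activator that binds the poly(A)-binding protein, was listed at P28 only. Pabpc4 and Pabpn1, which bind poly(A), Denr, which acts in reinitiation, Mcts2, Dhx29, a helicase of the scanning ribosome, and Secisbp2, which directs selenocysteine insertion, were listed at P28.5 only. On the plus strand the P28 list held 2 of the 12, or 16.7%, below the 26.0% of all plus-strand genes, and the P28.5 list 7, or 58.3%, above 20.4%.

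Of 12 mitochondrial translation factors, 2 were listed at each age, or 16.7%, beside 16.8% and 11.6% of all genes. These were Gfm2, for a ribosome recycling factor, at both, Tufm, for the mitochondrial elongation factor Tu, at P28, and Qrsl1, for a subunit of the enzyme that makes glutaminyl-tRNA, at P28.5. Of 11 genes of the integrated stress response, the pathway downstream of the eIF2 kinases, Ddit3 and Ppp1r15b were listed at both ages, or 18.2%. Of all genes, 16.8% were listed at P28, 11.6% at P28.5 and 8.48% at both ages. Ppp1r15b encodes a cofactor of the phosphatase that acts on eIF2. Atf4, Chac1, Gcn1 and Impact on the plus strand were not listed.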

How the data were processed

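CUT&RUN for ARID2 in synchronized CD1 testes was analysed from the 2 deposited lists of cluster-1 TSSs, 1 for P28 and 1 for P28.5. Per the labels and the study's methods, the authors trimmed reads, aligned them to mm10 with Bowtie2, used SAMtools, and made deepTools coverage without blocklisted regions and duplicates, scaled with csaw. They took the log2 ratio to the no IgG control, averaged replicates and clustered RefSeq TSSs by k-means. The RefSeq release is not given in the sources used here. The deposited values are genomic positions with gene symbols. They hold no counts or signal, so neither the depth behind a TSS nor the replicate spread can be read from them. The study gives read totals per library, which were not used here. The BRG1 libraries, signal tracks and peaks were not analysed here.

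Positions were compared with the ends of 119251 transcripts that RefSeq annotates on GRCm38.p6, which is mm10. A symbol was taken as written, or else as a synonym that points to exactly 1 gene. At P28, 3985 of 4095 symbols matched as written and 100 by synonym, and at P28.5, 2640 of 2707 and 62. A member was listed when a row carried its name. The curated start is the 5′ end of the NM transcript with the lowest number. CpG quintiles were set over all protein-coding genes, and sequences were read from RefSeq GRCm38.p6. Counting was tested on simulated lists. No test across groups was run, since lists of averaged replicates allow none. Python 3.11.15, numpy 2.4.6, pandas 2.3.3, scipy 1.17.1 and matplotlib 3.10.9 were used.

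The members and gene lists were chosen with earlier results of these data known. Members were named by role and class, and items withheld for evaluation are not reported here. Positions were given for members listed at 1 age, the 6 with the most rows, paralogue and synthetase pairs, and unlisted members near a listed position, and others outside this rule were chosen after their values were seen. Alternatives were counting by distance, symbols as written, plus-strand genes, factors proper, genes without a shared start, and the highest CpG quintile. Those chosen only after the values had been seen were plus-strand genes without the readthrough gene, the CpG quintile at the curated start, named rows near a start, and genes with a possible position within 2000 bp.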

Additional observations from a re-analysis of the deposited data

How the results depend on the processing

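With plus-strand genes alone, the share of members listed was 49.2% at P28, in place of 28.8%, and 52.5% at P28.5, in place of 29.7%, since this leaves out the minus-strand genes, and without the readthrough gene to 50% and 51.7%, an alternative added after seeing the data. Among genes with a possible position within 2000 bp of a start, also added, the shares were 43.9% and 47.6%, beside 23.9% and 20.5% of all such genes. In the highest CpG quintile at the curated start, also added, the share at P28.5 was 40.0%, beside 27.1% of all. Under the other alternatives the share lay between 27.1% and 35.6% at P28, and between 28.6% and 37.3% at P28.5, and each was above that of all genes counted in the same way. The share of members listed at 1 age that were in the P28.5 list lay between 50% and 66.7%, over 6 to 15 genes. Over all genes counted in the same way, this share also moved, between 23.2% and 44.4%. The 66.7%, which is 4 of 6 members, stands beside 44.4% in the highest CpG quintile and 43.3% in that at the curated start.

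Leaving out a replicate was not possible, because the replicates had been averaged before clustering. No paired analysis was possible because the lists carry no replicate values. The lists do not give ARID2 signal, so a gene just inside the cluster cannot be told from one just outside it, and a change of class between the ages has no size or error.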
